A study of Mus musculus with 16 samples.

Results

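The genes described here encode the proteasome, the protease complex that degrades ubiquitin-tagged proteins, together with its activators, its inhibitor and its assembly chaperones. They were chosen by name: every gene symbol made of Psm, a letter from a to g and a number, with or without further letters or digits, and without the ending that marks pseudogenes. The rule found 50 of the 52636 gene rows. A total of 48 members were tested; Psma8, an alpha subunit of germ cells, and Psmb11, the thymus-specific catalytic subunit, were listed at 0 in all 16 libraries. The members were 7 tested alpha ring subunits, 7 constitutive beta ring subunits, 6 ATPases and 3 other proteins of the base of the regulatory particle, 8 proteins of its lid, 5 immunoproteasome members, 4 other activators and inhibitors, 7 assembly chaperones and Psmc3ip. Psmc3ip carries the name only: its product acts in meiotic recombination and is not a subunit.

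The proteolytic core is a barrel of alpha and beta rings, and its cutting sites lie in the constitutive beta subunits Psmb5, Psmb6 and Psmb7. Interferon-gamma is known to induce the counterparts Psmb8, Psmb9 and Psmb10, which take their places in newly assembled barrels, and the activator subunits Psme1 and Psme2. These immune forms are known for shaping the peptides that macrophages and other cells present on major histocompatibility complex (MHC) class I molecules.

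RNA was measured by 3′ end sequencing in RAW264.7, a mouse macrophage-like line, under 4 conditions with 4 libraries each. The groups were Cebpb siRNA with isoproterenol, Cebpb siRNA without it, control siRNA with isoproterenol, and control siRNA without it. Every group was transfected with 25 nM siRNA using a lipid reagent, 24 h before any stimulation. The Cebpb groups share a single siRNA product, which targets the mRNA of C/EBPβ, a transcription factor of macrophages. Isoproterenol activates β-adrenergic receptors, and the labels state neither its dose nor how long it was applied. Each group held 2 libraries from each of 2 experiments. The design text calls the libraries biological replicates; no label ties them to separate cultures beyond that, so p-values measure the spread between these libraries.

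Library size ranged from 9.42 to 25.17 M reads, with 5.81 to 15.9 M reads on genes. The shallowest library by far was replicate 2 of experiment 2 with Cebpb siRNA, and the next had 13.71 M reads. The share of unmapped reads moved with the siRNA, at 5.9 to 7.36% against 5.07 to 5.81% with isoproterenol and 6.32 to 7.61% against 5.14 to 5.94% without (Cebpb siRNA against control siRNA). Multimapping reads held 19.44 to 21.27% against 21.32 to 21.87%, and 20.39 to 21.72% against 21.67 to 22.3%. The part of these shares in the siRNA results was not tested. Levels are given in RPM, the read number scaled to all sequenced reads of the library, and the files set anything at or under 1 RPM to 0. All 10 macrophage markers were detected, summing to 2240 to 2760 RPM with Cebpb siRNA and isoproterenol, 2100 to 2320 with Cebpb siRNA, 2370 to 2780 with control siRNA and isoproterenol, and 1740 to 2210 with control siRNA. All markers of fibroblasts, epithelial cells, B cells, and T and NK cells were at 0 in every library; of the dendritic cell list only Zbtb46 was above the floor, at 3.61 to 6.64 RPM. Of the neutrophil list only S100a8 was, at 0 RPM with Cebpb siRNA and isoproterenol, 0 to 1.05 with Cebpb siRNA, 4.44 to 5.84 with control siRNA and isoproterenol, and 2.28 to 3.48 with control siRNA. The part of these marker differences in the results was not tested. Cebpb itself averaged 26.5 ± 2.04 RPM with Cebpb siRNA and isoproterenol against 92.1 ± 10.3 with control siRNA and isoproterenol, and 22.9 ± 8.83 with Cebpb siRNA against 76.1 ± 11.2 with control siRNA (SD, n = 4 each). Its level was 30.3% and 30.4% of control in these comparisons, with a log2 fold change of −1.72 ± 0.20 (SE) in each (limma adjusted p = 4.56e-07 and 4.94e-07).

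The start regions of 4 members are shown because these genes went different ways after Cebpb siRNA: Psme1 and Psmb9 are immune members, and Psmb6 and Psmb5 are constitutive catalytic subunits. Each window runs 250 bases before to 50 bases after a RefSeq start site on GRCm38.p6, is written in the direction of the gene, and has the matches to the searched motifs in capitals. The windows are chr14:55578244-55578543 on the plus strand for Psme1, chr17:34187281-34187580 on the minus strand for Psmb9, chr11:70525107-70525406 on the plus strand for Psmb6, and chr14:54617946-54618245 on the minus strand for Psmb5.
Psme1: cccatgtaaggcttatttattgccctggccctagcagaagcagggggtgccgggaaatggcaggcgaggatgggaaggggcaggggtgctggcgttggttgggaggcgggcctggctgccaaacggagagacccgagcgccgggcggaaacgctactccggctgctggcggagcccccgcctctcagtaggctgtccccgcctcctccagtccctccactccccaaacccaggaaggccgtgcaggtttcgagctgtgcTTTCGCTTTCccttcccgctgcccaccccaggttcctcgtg
Psmb9: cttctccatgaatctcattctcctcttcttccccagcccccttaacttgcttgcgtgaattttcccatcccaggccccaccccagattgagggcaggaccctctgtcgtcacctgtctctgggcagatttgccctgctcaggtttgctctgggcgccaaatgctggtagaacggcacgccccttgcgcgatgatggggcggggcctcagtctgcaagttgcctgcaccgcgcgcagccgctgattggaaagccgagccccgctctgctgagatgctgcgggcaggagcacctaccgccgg
Psmb6: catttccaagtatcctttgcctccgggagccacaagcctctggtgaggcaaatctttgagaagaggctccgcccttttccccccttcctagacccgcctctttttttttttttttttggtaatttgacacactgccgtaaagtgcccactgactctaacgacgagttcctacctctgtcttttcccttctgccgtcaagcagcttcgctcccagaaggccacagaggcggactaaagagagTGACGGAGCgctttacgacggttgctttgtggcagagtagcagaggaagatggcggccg
Psmb5: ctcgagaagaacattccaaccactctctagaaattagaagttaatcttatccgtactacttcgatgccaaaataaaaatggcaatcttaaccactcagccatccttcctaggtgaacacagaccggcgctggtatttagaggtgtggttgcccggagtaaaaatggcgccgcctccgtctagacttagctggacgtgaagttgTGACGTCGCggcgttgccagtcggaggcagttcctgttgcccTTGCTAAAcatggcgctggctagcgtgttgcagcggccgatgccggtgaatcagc
Motifs were searched on both strands of all 32851 windows of the table, which hold 42 of the 50 members. Members without a window are Psma8, Psmb1, Psmb2, Psmb7, Psmc3, Psmd3, Psmd7 and Psmg2. The interferon response element, searched as GAAA, any 2 bases and GAAA again, was found in 3.44% of all windows and in 5 members, of which Psme1 is an immune one, with the match beginning 9 bases after the start site, on the other strand. The other members with that match are Psmb3, Psmd4, Psmd9 and Psmg4. The antioxidant response element TGACNNNGC, which NRF1 and NRF2 are known to bind, was found in 12.4% of all windows and in 6 members, Psmb5, Psmb6, Psmc6, Psmd12, Psmd9 and Psme4, with 0 of the immune members among them. The C/EBP element TTGCNNAA was found in 10.8% of all windows and in Psma6, Psmb3, Psmb5 and Psmf1. The NF-κB element, searched as GGGA, any base and TTTCC, was found in 0.411% of all windows and in 0 members. In Psmb5 the antioxidant response element begins 47 bases and the C/EBP element 5 bases before the start site, and in Psmb6 the antioxidant response element begins 9 bases before it. These are matches of letters within the windows and say nothing of binding.

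The immune members were higher after Cebpb siRNA, while the rest of the family moved in both directions and was called lower more often than higher. Without isoproterenol, 4 of the 5 immune members rose, with a median log2 fold change of 0.48 over the 5, and with isoproterenol all 5 rose, with a median of 0.46. Over the other 43 tested members 6 were called higher and 16 lower in each siRNA comparison, with medians of −0.08 without and −0.06 with isoproterenol. The median over all 11044 tested genes was 0.02 in both. Of these genes, 32.1% were called higher and 30% lower with isoproterenol, and 31.5% and 29.8% without. In each comparison 51.2% of the other 43 members were called, against 62.1% of all tested genes with isoproterenol and 61.4% without. A call means an adjusted p under 0.05 in limma, adjusted over all tested genes, and both siRNA comparisons share no library with each other.

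Counts of called members are read against a high background, since most genes were called after this siRNA. In all, 10 of 48 members were higher and 16 lower without isoproterenol (54.2% called), against 31.5% higher, 29.8% lower and 61.4% called of all tested genes. With isoproterenol 11 were higher and 16 lower (56.2%), against 32.1% higher, 30% lower and 62.1% called in all. The members' overall share of calls was therefore near the background in both comparisons. With values as deposited, without scaling between libraries, 7 members were higher and 21 lower in each siRNA comparison. Relative to scaled values, the median of all genes then shifted by −0.07 with isoproterenol and by −0.09 without. Without the shallowest library the comparison without isoproterenol called 9 members higher and 15 lower, with a median of 0.46 for the immune members. In bulk RNA, fewer cells of a kind and less RNA per cell cannot be told apart.

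Psmb9, the immune counterpart of Psmb6 (chromosome 17, 34181987 to 34187764, minus strand of GRCm38), measured 48.1, 47.1, 54.1 and 43.6 RPM in Cebpb siRNA cells with isoproterenol, against 34.1, 33.1, 35.3 and 38.5 RPM in control siRNA cells with isoproterenol. Without isoproterenol it measured 43.8, 43.9, 44.1 and 55.8 RPM with Cebpb siRNA, against 34, 28.9, 38.5 and 36.3 RPM with control siRNA. Here and below, the 4 values of a group are replicates 1 and 2 of experiment 1, then replicates 1 and 2 of experiment 2. The groups did not overlap in either comparison, and 1 Cebpb siRNA library, replicate 2 of experiment 2, stood above the others; it was the shallowest. The log2 fold change was 0.52 ± 0.09 (SE) with isoproterenol (limma adjusted p = 1.53e-05) and 0.54 ± 0.09 without (9.7e-06; 0.46 without the shallowest library, adjusted p = 2.53e-05). Psmb9 overlaps Tap1 on the other strand, and no source used here states whether counting used strand; Tap1 itself changed by 0.11 ± 0.09 with isoproterenol (adjusted p = 0.312) and 0.19 ± 0.09 without (0.0799).

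Psme2, a subunit of the interferon-inducible activator ring that opens the barrel (chromosome 14, 55587441 to 55591113, minus strand), had the largest log2 fold change of the 5 immune members. It measured 73.8, 71.7, 89.4 and 70.3 RPM with Cebpb siRNA and isoproterenol, against 45.5, 43.8, 55.2 and 70.3 RPM with control siRNA and isoproterenol. It measured 66.2, 64.9, 73.2 and 84.1 RPM with Cebpb siRNA, against 44, 42.8, 62.7 and 58.9 RPM with control siRNA. The groups without isoproterenol did not overlap, and with isoproterenol the lowest Cebpb siRNA library equalled the highest control library at 70.3 RPM. The log2 fold changes were 0.60 ± 0.09 with isoproterenol (limma adjusted p = 4.57e-06) and 0.58 ± 0.09 without (7.95e-06). Psme2b, a near-identical copy of Psme2 on chromosome 11, was low, at 4.38, 4.63, 7.01 and 6.65 RPM with Cebpb siRNA and isoproterenol against 3.17, 2.94, 3.93 and 4.48 RPM with control siRNA and isoproterenol. Without isoproterenol it measured 3.76, 5.79, 4.49 and 3.18 RPM with Cebpb siRNA against 2.52, 3.21, 3.23 and 3.31 RPM with control siRNA. It was called higher in both, by 0.70 ± 0.18 and 0.56 ± 0.18 (limma adjusted p = 0.00148 and 0.00899). How reads were divided between the copies is uncertain, and Psme2b also overlaps 9930111J21Rik1 and Gm12185 on its own strand. In these unscaled levels its groups overlapped in both comparisons. The lowest Cebpb siRNA and highest control siRNA libraries were at 4.38 and 4.48 RPM with isoproterenol, and 3.18 and 3.31 without. Its call without isoproterenol was lost without Cebpb siRNA replicate 2 of experiment 1 (0.37, limma adjusted p = 0.0608) and in experiment 2 alone (0.35, 0.187).

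Psme1, the partner of Psme2 in the same ring (chromosome 14, 55578123 to 55581529, plus strand), measured 80.7, 79.1, 99.6 and 98.3 RPM with Cebpb siRNA and isoproterenol, against 58.2, 66.6, 76.3 and 73.4 RPM with control siRNA and isoproterenol. It measured 76.7, 77.7, 95.9 and 86.1 RPM with Cebpb siRNA, against 52.3, 61.6, 73.6 and 71.6 RPM with control siRNA. Neither pair of groups overlapped, and Emc9, like the predicted genes that overlap Psmb8 and Psmb10, lies on the other strand of Psme1. Both values of experiment 2 lay above both of experiment 1 in each group. The log2 fold changes were 0.46 ± 0.06 with isoproterenol (limma adjusted p = 1.28e-06) and 0.48 ± 0.06 without (6.49e-07).

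Psmb10, the counterpart of Psmb7 (chromosome 8, 105935735 to 105938444, minus strand), rose after Cebpb siRNA in each experiment and also differed between the experiments. It measured 45.4, 45.7, 81.9 and 78.7 RPM with Cebpb siRNA and isoproterenol, against 38.2, 41.6, 57.3 and 64.6 RPM with control siRNA and isoproterenol. It measured 42.5, 49.3, 72.7 and 62.3 RPM with Cebpb siRNA, against 37.8, 37.5, 54.7 and 62.4 RPM with control siRNA. Pooled over experiments the groups overlapped, and within experiment 2 without isoproterenol 1 control library reached the lower Cebpb siRNA library. The log2 fold change was 0.37 ± 0.07 with isoproterenol (0.25 in experiment 1 and 0.49 in experiment 2; limma adjusted p = 8.19e-05) and 0.34 ± 0.07 without (0.33 and 0.34; adjusted p = 0.000225). Without the experiment as a term both calls were lost (adjusted p = 0.213 and 0.256).

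Psmb8, the counterpart of Psmb5 (chromosome 17, 34197721 to 34201454, plus strand), had the smallest log2 fold change of the immune members. It measured 131, 127, 181 and 137 RPM with Cebpb siRNA and isoproterenol, against 100, 125, 126 and 160 RPM with control siRNA and isoproterenol. It measured 125, 120, 128 and 134 RPM with Cebpb siRNA, against 105, 104, 149 and 129 RPM with control siRNA. The groups overlapped in both comparisons. The log2 fold change was 0.25 ± 0.09 with isoproterenol (limma adjusted p = 0.016) and 0.17 ± 0.09 without (95% interval −0.01 to 0.35, adjusted p = 0.0979). The call with isoproterenol was lost in 6 of 28 alternatives: values as deposited, no experiment term, experiment 2 alone, and without 1 of 3 libraries, Cebpb siRNA with isoproterenol experiment 2 replicate 1 and control siRNA with isoproterenol replicate 1 of either experiment (adjusted p = 0.073 to 0.0879). Without isoproterenol a call was gained in experiment 1 alone (0.28, adjusted p = 0.0101), without control siRNA experiment 2 replicate 1 (0.22, adjusted p = 0.043) and without Cebpb siRNA experiment 2 replicate 1 (0.22, adjusted p = 0.0496).

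**Figure D1:**
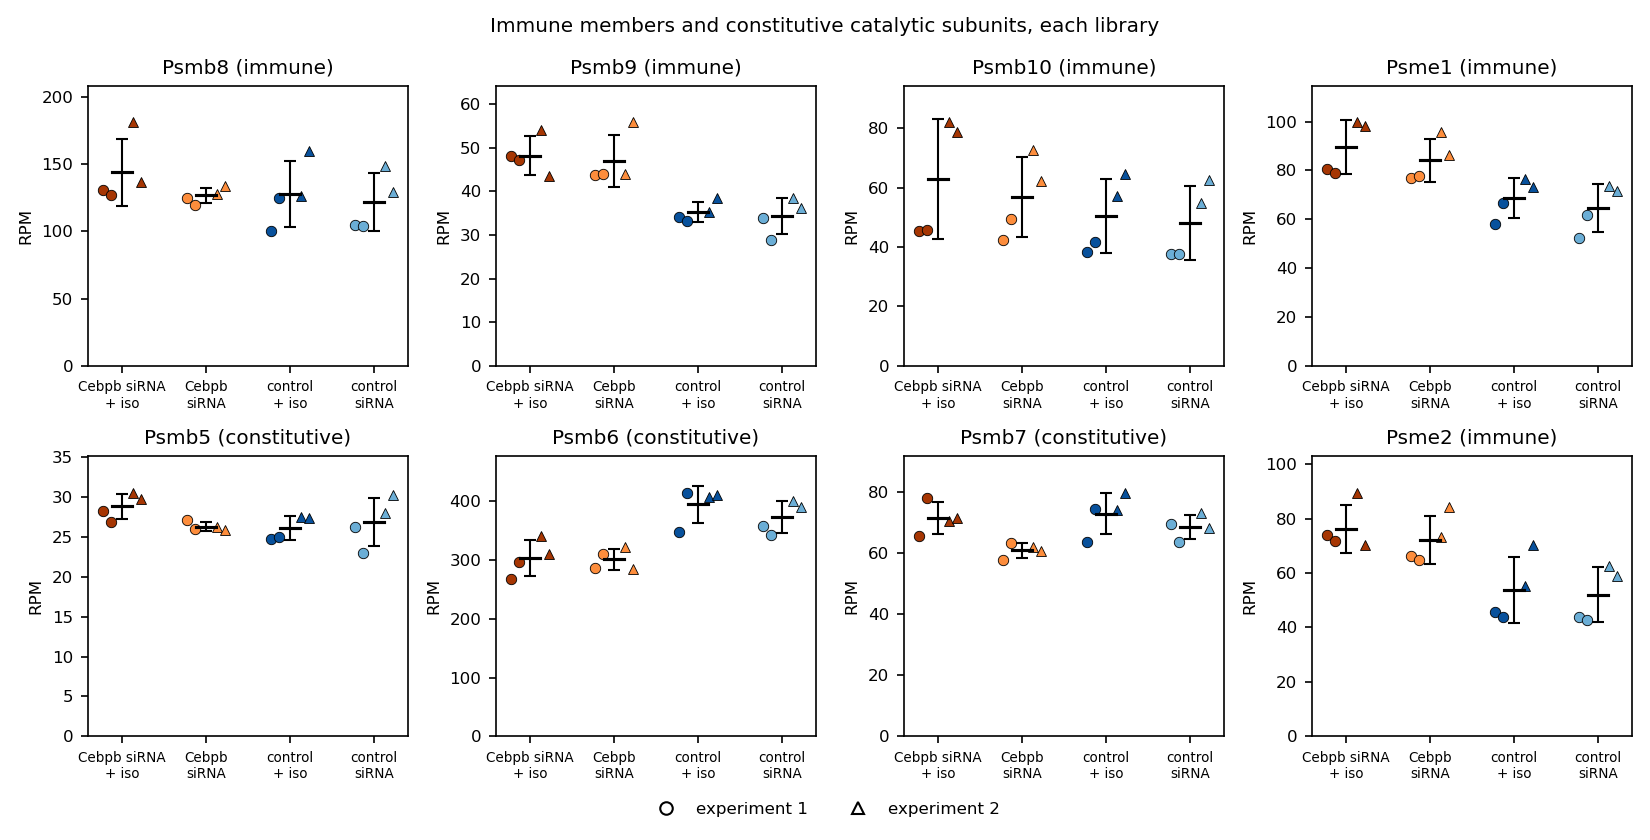
Level (RPM, linear axis from 0) of the 5 immune members and the 3 constitutive catalytic subunits in each of the 16 libraries. Circles are experiment 1, triangles experiment 2, and black bars the mean and SD of 4 libraries; Psmb9 and Psme1 lie higher in both Cebpb siRNA groups, Psmb6 lies lower, and Psmb10 separates by experiment.

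The constitutive catalytic subunits did not move as a group. Psmb6, the caspase-like subunit, measured 267, 296, 341 and 311 RPM with Cebpb siRNA and isoproterenol, against 348, 414, 407 and 410 RPM with control siRNA and isoproterenol. It measured 287, 311, 322 and 285 RPM with Cebpb siRNA, against 357, 343, 401 and 390 RPM with control siRNA. In these unscaled levels the groups did not overlap in either comparison. With isoproterenol the nearest libraries, at 341 and 348 RPM, were too close to be told apart after scaling (log2 offsets of −0.016 and 0.015). On the log2 scale Psmb6 fell by 0.31 ± 0.06 with isoproterenol (limma adjusted p = 6.6e-05) and by 0.21 ± 0.06 without (0.00273).

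Psmb5, the chymotrypsin-like subunit, measured 28.2, 26.9, 30.5 and 29.7 RPM with Cebpb siRNA and isoproterenol, against 24.7, 25, 27.5 and 27.4 RPM with control siRNA and isoproterenol. It measured 27.1, 26, 26.2 and 25.9 RPM with Cebpb siRNA, against 26.3, 23, 28 and 30.2 RPM with control siRNA. All groups lay close together, and its log2 fold change was 0.21 ± 0.07 with isoproterenol (limma adjusted p = 0.0105, not called with values as deposited or in either experiment alone, adjusted p = 0.0855 to 0.101) and 0.07 ± 0.07 without (0.39). Psmb7, the trypsin-like subunit, measured 65.5, 78.2, 70.4 and 71.5 RPM with Cebpb siRNA and isoproterenol, against 63.6, 74.3, 74.2 and 79.7 RPM with control siRNA and isoproterenol. It measured 57.6, 63.2, 62 and 60.8 RPM with Cebpb siRNA, against 69.4, 63.8, 73.3 and 68.1 RPM with control siRNA. In these unscaled levels the Psmb7 groups without isoproterenol did not overlap, and those with it did. The log2 fold changes were 0.04 ± 0.06 (limma adjusted p = 0.56) with isoproterenol and −0.08 ± 0.06 (0.296) without. With values as deposited Psmb7 was called lower without isoproterenol (−0.17, limma adjusted p = 0.0436).

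Ratios of an immune subunit to its counterpart within a library do not depend on scaling between libraries. Reads come from 3′ ends and are not divided by length, so only differences in these log2 ratios are compared, not their size, which is not a stoichiometry. The log2 ratio of Psmb9 to Psmb6 averaged −2.66 ± 0.15 with Cebpb siRNA and isoproterenol against −3.48 ± 0.13 with control siRNA and isoproterenol, and −2.69 ± 0.23 with Cebpb siRNA against −3.44 ± 0.09 with control siRNA (SD, n = 4 each). Its ranges were −2.84 to −2.47 against −3.65 to −3.35, and −2.865 to −2.353 against −3.57 to −3.38, so the groups lay apart in both comparisons. The difference was 0.83 with isoproterenol (0.94 in experiment 1 and 0.72 in experiment 2) and 0.75 without (0.71 and 0.80).

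The other 2 pairs differed by less. The log2 ratio of Psmb10 to Psmb7 was higher with Cebpb siRNA by 0.32 with isoproterenol (0.13 in experiment 1 and 0.52 in experiment 2) and by 0.41 without (0.42 and 0.41), with overlapping groups. The log2 ratio of Psmb8 to Psmb5 was higher by 0.04 with isoproterenol and by 0.10 without, and its groups overlapped throughout. Of all reads on the 6 catalytic subunits, the immune forms held 38.5 ± 2.59% with Cebpb siRNA and isoproterenol against 30 ± 2.65% with control siRNA and isoproterenol, and 37.2 ± 2.44% with Cebpb siRNA against 30.2 ± 2.3% with control siRNA (SD, n = 4 each). The ranges were 35.4 to 41.7% against 28 to 33.8%, and 34.7 to 40.5% against 28.1 to 32.5%. Psmb6, which fell, was the most abundant of the 6, with group means of 301 to 395 RPM. The share therefore follows its fall as well as the rise of the immune forms. These values describe the members and were given no test.

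**Figure D2:**
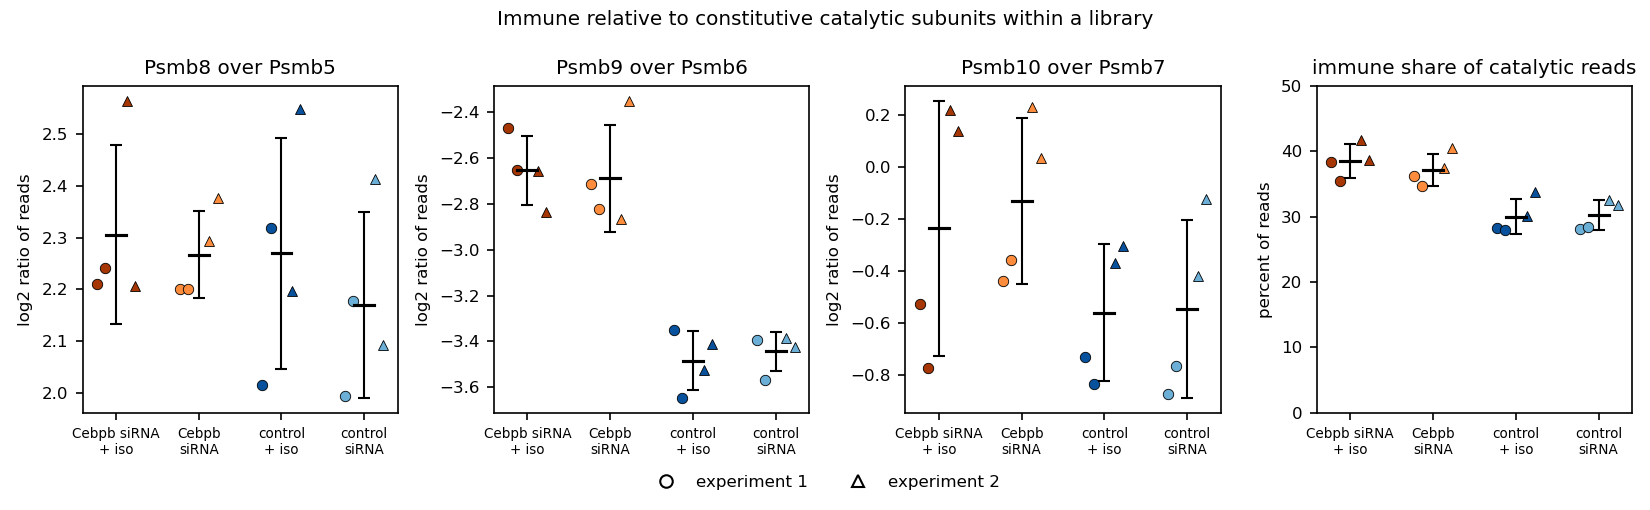
Log2 ratio of reads of each immune catalytic subunit to its constitutive counterpart, and the immune share of catalytic reads (percent, axis from 0), in each of the 16 libraries. Circles are experiment 1, triangles experiment 2, and bars the mean and SD of 4 libraries; the Psmb9 to Psmb6 ratio and the immune share separate the Cebpb siRNA groups from the control siRNA groups, and the Psmb8 to Psmb5 ratio does not.

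The constitutive barrel and the regulatory particle had lower mean sums after Cebpb siRNA. The 31 tested core subunits outside the immune set summed to 4740 ± 247 RPM with Cebpb siRNA and isoproterenol against 5320 ± 322 with control siRNA and isoproterenol, and to 4500 ± 196 with Cebpb siRNA against 5160 ± 315 with control siRNA. The 5 immune members summed to 421 ± 62 against 336 ± 56.3 RPM, and to 386 ± 37.1 against 321 ± 55.1 RPM (SD, n = 4 each). The core sums overlapped with isoproterenol, at 4443 to 5040 against 4840 to 5500 RPM, and not without it, at 4331 to 4750 against 4779 to 5464 RPM. These sums are unscaled, are led by the most abundant members, and have no test. The libraries at 4750 and 4779 RPM had log2 scaling offsets of −0.064 and −0.013, so the gap without isoproterenol does not hold after scaling. In unscaled values the median log2 fold change of all genes also shifted, by −0.066 with isoproterenol and −0.089 without. Member by member, 4 of the 31 core subunits were called higher and 11 lower with isoproterenol, and 3 higher and 12 lower without it. That is 48.4% called in each comparison. Of all tested genes, 32.1% were higher and 30% lower with isoproterenol (62.1% called). Without isoproterenol the background was 31.5% higher and 29.8% lower (61.4% called). The lower calls of the core subunits were therefore near the background.

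In the alpha ring, which gates entry to the barrel, 1 of 7 subunits was called higher and 3 lower in each siRNA comparison. Psma2 had the largest fall of any subunit of the complex: it measured 205, 203, 223 and 189 RPM with Cebpb siRNA and isoproterenol, against 325, 344, 339 and 340 RPM with control siRNA and isoproterenol. It measured 202, 213, 223 and 209 RPM with Cebpb siRNA, against 319, 307, 340 and 350 RPM with control siRNA. The groups were far apart with little spread inside each, and Psma2, which overlaps the gene AW209491 on its own strand so that the division of reads is uncertain, fell by 0.65 ± 0.05 with isoproterenol (limma adjusted p = 5.68e-10) and by 0.54 ± 0.05 without (1.2e-08). Psma7 fell by 0.35 ± 0.05 and 0.34 ± 0.05 (limma adjusted p = 5.11e-06 and 1.05e-05), and Psma4 by 0.18 ± 0.07 and 0.20 ± 0.07 (0.0277 and 0.0137). Neighbours of these in the same ring did not fall: Psma1 was called higher with isoproterenol (0.23 ± 0.07, limma adjusted p = 0.00541) and Psma6 without it (0.17 ± 0.06, 0.0213), while Psma3 and Psma5 passed in neither.

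In the constitutive beta ring 2 of 7 subunits were called higher and 1 lower with isoproterenol, and 1 higher and 1 lower without. Psmb1, a structural subunit without a cutting site, measured 208, 224, 215 and 234 RPM with Cebpb siRNA and isoproterenol, against 181, 198, 188 and 192 RPM with control siRNA and isoproterenol. It measured 208, 223, 210 and 182 RPM with Cebpb siRNA, against 185, 175, 179 and 182 RPM with control siRNA. The groups with isoproterenol did not overlap, and without isoproterenol 1 Cebpb siRNA library, at 182 RPM, lay among the control libraries. It rose by 0.29 ± 0.05 and 0.28 ± 0.05 (limma adjusted p = 8.02e-05 and 0.000108). Psmb2, Psmb3 and Psmb4, the other structural members, passed in neither comparison, with log2 fold changes between −0.14 and 0.11.

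In the regulatory particle, Psmc2, Psmd1, Psmd2, Psmd3, Psmd7 and Psmd13 fell in both comparisons and Psmd8 rose in both. Among the ATPases, which unfold substrates, limma called 1 of 6 lower with isoproterenol and 3 without, with 0 called higher in either (0 also at an unadjusted p under 0.05). Psmc2 measured 57.2, 61.9, 63.4 and 57.9 RPM with Cebpb siRNA and isoproterenol against 77.4, 84.1, 89.3 and 84.2 RPM with control siRNA and isoproterenol, and fell by 0.41 ± 0.06 (limma adjusted p = 3.78e-06); without isoproterenol it measured 53.4, 58.4, 61.9 and 61 RPM with Cebpb siRNA against 88.1, 78.2, 83.2 and 88.3 RPM with control siRNA, and fell by 0.43 ± 0.06 (1.8e-06). The groups lay apart in both comparisons. Psmc1 and Psmc4 fell without isoproterenol by 0.24 ± 0.08 and 0.21 ± 0.08 (limma adjusted p = 0.00962 and 0.0233), with values of −0.06 ± 0.08 and −0.14 ± 0.08 with it (0.545 and 0.113). The scaffold proteins Psmd1 and Psmd2 fell in both comparisons, by 0.19 to 0.22, while the ubiquitin receptor Psmd4 did not pass.

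In the lid 1 of 8 proteins was called higher and 4 lower with isoproterenol, and 1 higher and 3 lower without. Psmd3 fell by 0.36 ± 0.06 and 0.34 ± 0.06 (limma adjusted p = 2.43e-05 and 4.73e-05) and Psmd7, the partner of the deubiquitinase, by 0.20 ± 0.07 and 0.24 ± 0.07 (0.0199 and 0.00666). Psmd14, the deubiquitinase itself, was called lower with isoproterenol (−0.30 ± 0.09, limma adjusted p = 0.00752) and not without it (−0.15 ± 0.09, 0.156); the test of the difference of isoproterenol effects called 0 members. Psmd13 was called lower in both (−0.30 ± 0.13, limma adjusted p = 0.0497, and −0.39 ± 0.13, 0.0132), but with isoproterenol the value was −0.60 in experiment 1 and −0.003 in experiment 2. Psmd8 was the lid protein called higher, by 0.22 ± 0.07 with isoproterenol and 0.21 ± 0.07 without (limma adjusted p = 0.00714 and 0.0112), and its values in each library are given with isoproterenol below. Without isoproterenol that rise was 0.04 in experiment 1 and 0.38 in experiment 2, and the call was lost without control siRNA experiment 2 replicate 2 (0.17, adjusted p = 0.0561). With values as deposited neither call was made (0.15 and 0.12, adjusted p = 0.0686 and 0.166).

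**Figure D3:**
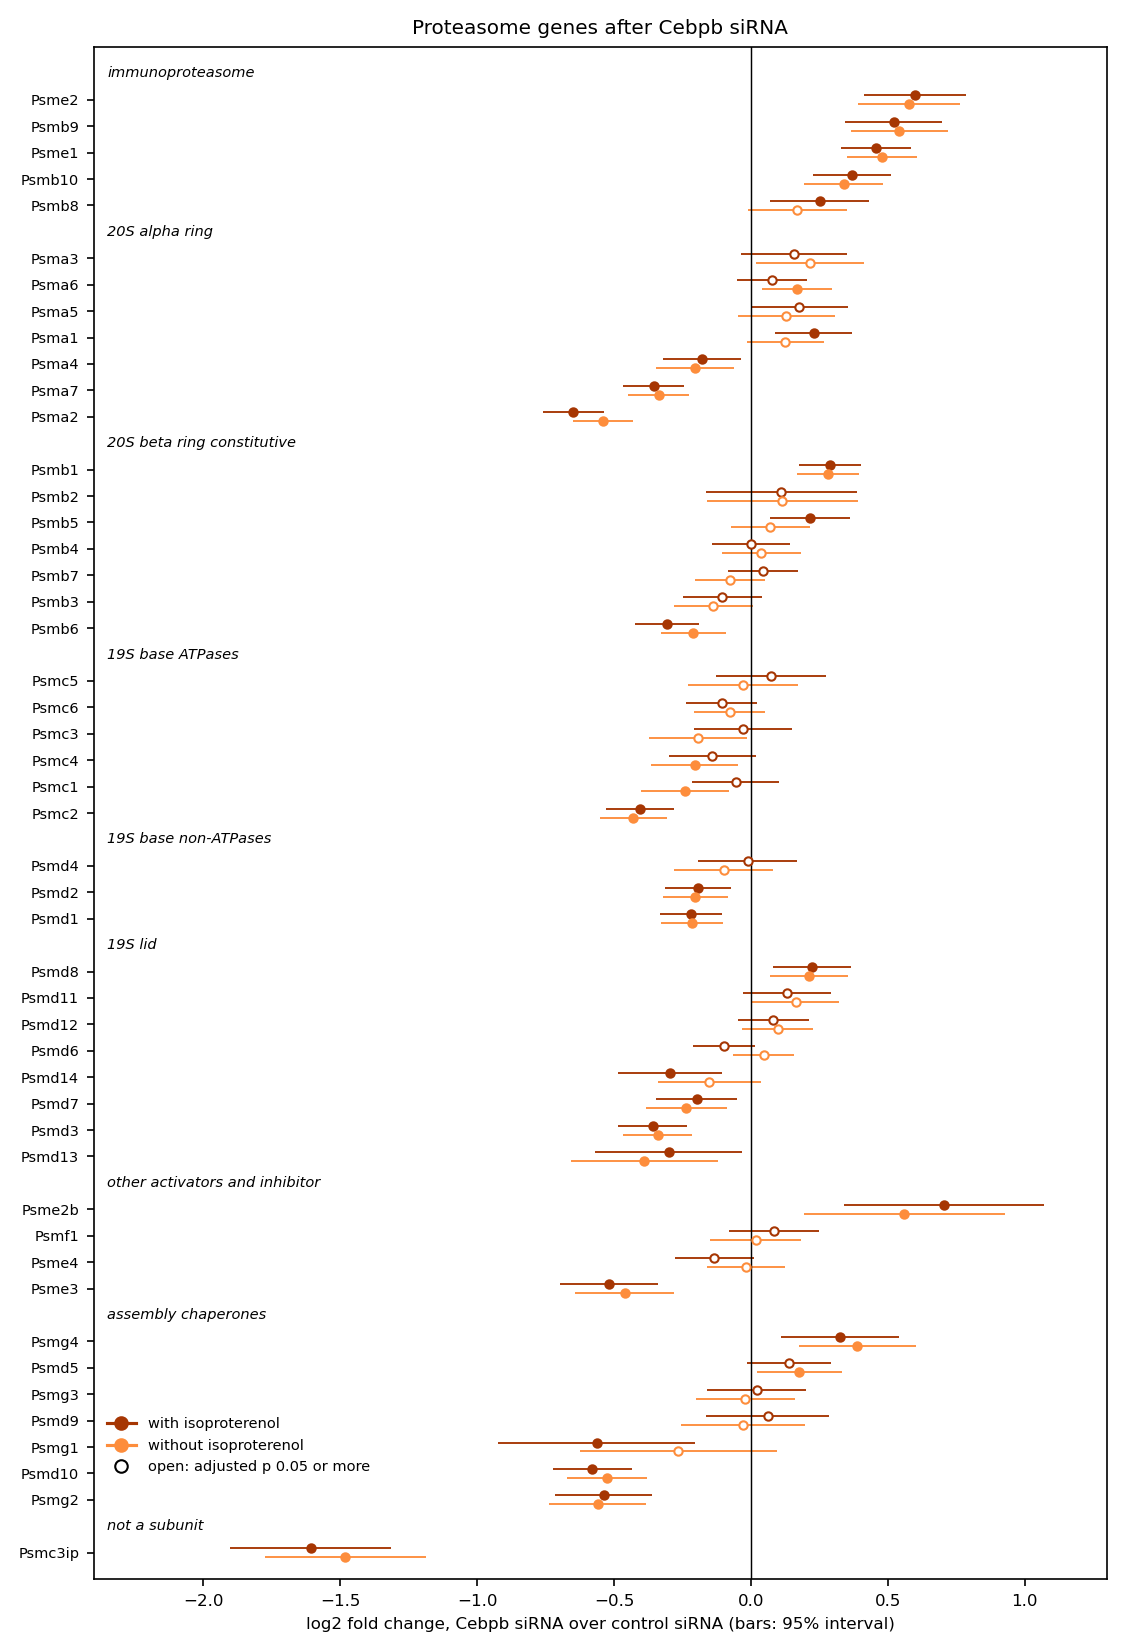
Log2 fold change of Cebpb siRNA over control siRNA for the 48 tested members, grouped by role, with isoproterenol (dark) and without (light). Bars are 95% intervals and open points have an adjusted p of 0.05 or more in limma; the 5 immune members lie to the right of 0 and Psmc3ip lies farthest to the left.

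Of the 4 other activators and inhibitors, 1 was called higher, Psme2b, and 1 lower in each siRNA comparison. Psme3, the nuclear activator related to Psme1 and Psme2, measured 32.3, 35.7, 34 and 34.7 RPM with Cebpb siRNA and isoproterenol, against 47, 50.5, 55.7 and 53 RPM with control siRNA and isoproterenol. It measured 34.3, 37.4, 40.3 and 29 RPM with Cebpb siRNA, against 58.4, 45.6, 54.8 and 48 RPM with control siRNA. The groups did not overlap, and Psme3 fell by 0.52 ± 0.09 and 0.46 ± 0.09 (limma adjusted p = 1.9e-05 and 8.1e-05). Psme4, an activator with a single large chain, and Psmf1, an inhibitor of the barrel, passed in neither comparison, with log2 fold changes of −0.13 and 0.08 with isoproterenol and −0.02 and 0.02 without.

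Among the 7 assembly chaperones, 1 was called higher and 3 lower with isoproterenol, and 2 higher and 2 lower without. Psmg2, which pairs with Psmg1 in building the alpha ring, measured 25.8, 24.8, 25.2 and 20.1 RPM with Cebpb siRNA and isoproterenol, against 38.5, 40.5, 31.3 and 36 RPM with control siRNA and isoproterenol. It measured 26.4, 23.5, 25.6 and 23.1 RPM with Cebpb siRNA, against 37, 41.3, 39.6 and 37.3 RPM with control siRNA. The groups lay apart, and Psmg2 fell by 0.54 ± 0.09 and 0.56 ± 0.09 (limma adjusted p = 1.04e-05 and 6.58e-06). Psmg1 was low, at 4.55 to 11.8 RPM over all libraries, and was called lower with isoproterenol (−0.56 ± 0.17, adjusted p = 0.00751; −0.17 in experiment 1 and −0.96 in experiment 2) and not without (−0.27 ± 0.17, 0.194).

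Psmd10, gankyrin, a chaperone of the ATPase ring, measured 30.2, 32.9, 37.6 and 39.6 RPM with Cebpb siRNA and isoproterenol, against 50.9, 57.9, 56.6 and 54.1 RPM with control siRNA and isoproterenol. It measured 30.5, 33.2, 38.2 and 34 RPM with Cebpb siRNA, against 52.1, 49, 55.4 and 52.2 RPM with control siRNA. The groups did not overlap, and Psmd10 fell by 0.58 ± 0.07 and 0.53 ± 0.07 (limma adjusted p = 2.48e-07 and 1.03e-06). Psmg4, which with Psmg3 forms the other chaperone pair of the alpha ring, measured 23.7, 19.6, 25.1 and 20.9 RPM with Cebpb siRNA and isoproterenol against 18.6, 17.3, 17.6 and 21.3 RPM with control siRNA and isoproterenol. It measured 17.8, 20, 20.8 and 23.2 RPM with Cebpb siRNA against 13.7, 18.2, 17.5 and 17.6 RPM with control siRNA. Its groups overlapped in both comparisons, and it rose by 0.33 ± 0.10 and 0.39 ± 0.10 (limma adjusted p = 0.00914 and 0.00254). The Psmg4 call with isoproterenol was made in neither experiment alone (limma adjusted p = 0.07 and 0.0745). Its call without isoproterenol was lost in experiment 1 alone (0.0813). Psmd5, another chaperone of the ATPase ring, measured 29.5, 36.4, 33.5 and 35.2 RPM with Cebpb siRNA against 30.7, 32.5, 32 and 31.8 RPM with control siRNA; its call (0.18 ± 0.07, limma adjusted p = 0.0441) was lost when any 1 of 11 libraries was left out, 3 of 4 Cebpb siRNA and 3 of 4 control siRNA libraries among them (adjusted p = 0.0504 to 0.144). With isoproterenol its value was 0.14 ± 0.07 (0.112). Psmd9 and Psmg3 passed in neither comparison.

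Psmc3ip had the largest fall among all members and is not part of the proteasome. It measured 3.43, 4.12, 5.56 and 3.37 RPM with Cebpb siRNA and isoproterenol, against 12.7, 13.5, 12.3 and 13.2 RPM with control siRNA and isoproterenol. It measured 3.62, 5.39, 5.88 and 5.09 RPM with Cebpb siRNA, against 13.3, 14.8, 15.5 and 15.1 RPM with control siRNA. The groups were far apart, and it fell by 1.61 ± 0.14 and 1.48 ± 0.14 (limma adjusted p = 1.83e-09 and 7.36e-09). Psmc3ip overlaps Mlx on the other strand, and no source used here states whether counting used strand.

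Isoproterenol left the immune members without a call in either siRNA setting. In Cebpb siRNA cells the median log2 fold change of the 5 was 0.03, and in control siRNA cells it was also 0.03, against −0.007 and −0.001 over all tested genes. Of 48 members, limma called 0 higher and 1 lower in each setting (2.08%). Of all tested genes, 2.83% were called higher and 2.64% lower in Cebpb siRNA cells (5.48% in all), and 1.17% and 0.453% in control siRNA cells (1.62% in all). At an unadjusted p under 0.05, 5 members were higher and 5 lower in Cebpb siRNA cells, and 1 higher and 1 lower in control siRNA cells, with 0 immune members among them. In Cebpb siRNA cells 1 member was called higher without either Cebpb siRNA library of experiment 2, and 2 lower without replicate 1 of experiment 2 with isoproterenol. The difference of the isoproterenol effects between siRNAs was called for 0 of 48 members, with 0 also at an unadjusted p under 0.05, and for 0.226% of all tested genes. The 95% intervals of the immune members' isoproterenol effects reached from −0.19 to 0.30 in Cebpb siRNA cells and from −0.18 to 0.21 in control siRNA cells.

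The member called with isoproterenol was Psmd8, a lid protein whose yeast counterpart joins the lid at the end of its assembly (chromosome 7, 29174188 to 29180701, minus strand). In Cebpb siRNA cells it measured 342, 378, 337 and 331 RPM with isoproterenol against 382, 421, 402 and 427 RPM without. In control siRNA cells it measured 322, 318, 302 and 307 RPM with isoproterenol against 451, 363, 356 and 345 RPM without. The groups did not overlap in either setting, and 1 control library, replicate 1 of experiment 1, stood above the rest. Psmd8 fell by 0.29 ± 0.07 in Cebpb siRNA cells (limma adjusted p = 0.0132; −0.20 in experiment 1 and −0.38 in experiment 2) and by 0.30 ± 0.07 in control siRNA cells (0.0215; −0.39 and −0.22). Without the high control library the value in control siRNA cells was −0.22 (limma adjusted p = 0.122), and it was also not called without any 1 of 3 libraries of the group with isoproterenol, replicate 2 of experiment 1 and both replicates of experiment 2 (adjusted p = 0.0628 to 0.0813). With values as deposited, neither call was made (adjusted p = 0.0547 and 0.0551).

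**Figure D4:**
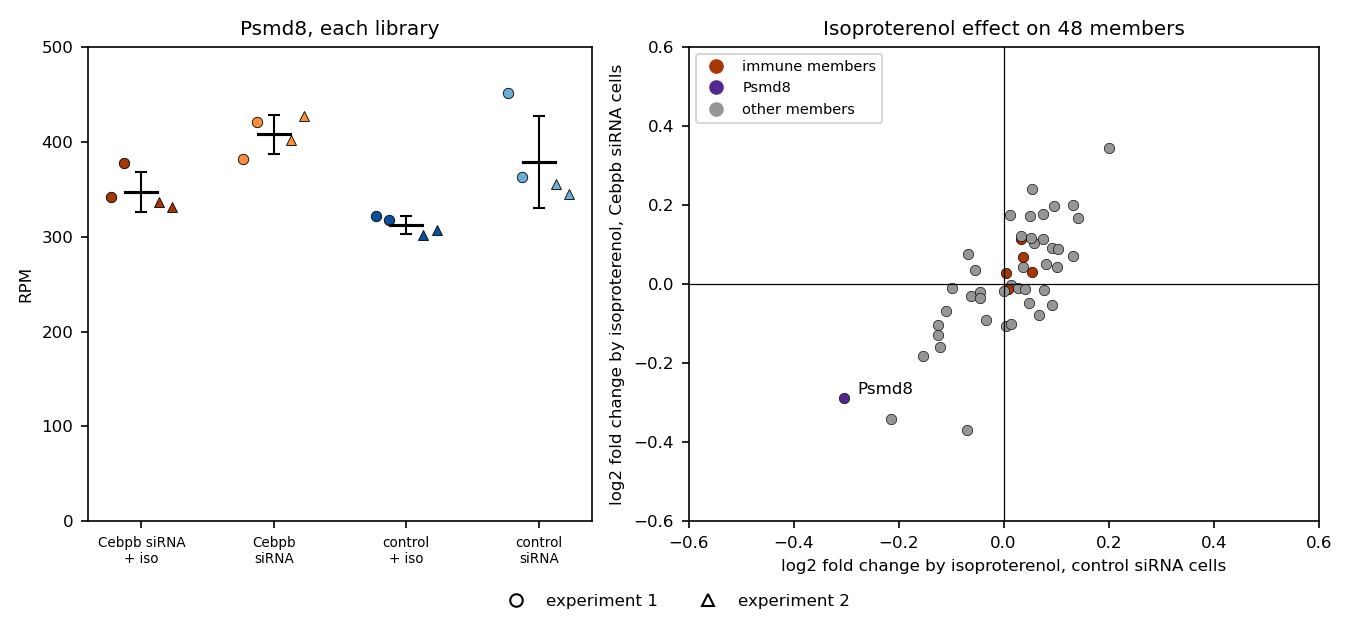
Left, the level of Psmd8 (RPM, axis from 0) in each library, with mean and SD of 4. Right, the log2 fold change by isoproterenol of each of the 48 tested members in Cebpb siRNA cells (vertical) against control siRNA cells (horizontal); Psmd8 is called in both, at −0.29 and −0.30, and the immune members lie between −0.01 and 0.12 on both axes.

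Experiment 2 differed from experiment 1 in members of both kinds, which bears on any pooled level given above. Of 48 members, limma called 16 higher and 0 lower in experiment 2 (33.3%; 21 higher and 0 lower at an unadjusted p under 0.05), against 17.2% higher, 15.7% lower and 32.9% called of all tested genes. Without the shallowest library 17 were higher and 2 lower. Psmb10 was higher by 0.65 ± 0.05 (limma adjusted p = 2.31e-09), Psme2 by 0.34 ± 0.06 (0.000315), and Psme1 and Psmb8 each by 0.29 (2.88e-05 and 0.00111), while Psmb9 did not pass (0.15 ± 0.06, 0.0651). It passed without Cebpb siRNA with isoproterenol experiment 2 replicate 2 (0.18, adjusted p = 0.0154) or Cebpb siRNA experiment 2 replicate 1 (0.18, 0.0307). Among the constitutive members Psma4 (0.40 ± 0.05), Psmd7 (0.37 ± 0.05) and Psmc5 (0.35 ± 0.07) had the largest differences. What separated the experiments beyond their number is not given in the labels.

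Genes around the immune members were read from lists of the interferon-gamma pathway and of MHC class I loading. Of 11 tested interferon-gamma pathway genes, 7 were called higher and 4 lower with isoproterenol, and 6 higher and 4 lower without, with medians of 0.32 and 0.29. Calls were common in all tested genes, at 62.1% (32.1% higher, 30% lower) with isoproterenol and 61.4% (31.5% and 29.8%) without, and the counts of this and the following lists stand beside that background. Receptor chains and transcription factors of the pathway each went both ways. The kinase Jak1 fell by 0.85 ± 0.06 and 0.83 ± 0.06, the receptor chain Ifngr2 by 0.69 ± 0.07 and 0.64 ± 0.07, and the factor Irf8 by 0.74 ± 0.07 and 0.69 ± 0.07 (limma adjusted p at most 5.89e-08). The receptor chain Ifngr1 rose by 0.64 ± 0.12 and 0.70 ± 0.12 (limma adjusted p = 8.24e-05 and 3.31e-05) and the factor Irf1 by 0.66 ± 0.07 and 0.56 ± 0.07 (1.51e-08 and 1.69e-07).

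Of 12 MHC class I loading genes, 7 were called higher and 3 lower in each siRNA comparison, with medians of 0.52 with isoproterenol and 0.43 without. Tapbp, tapasin, which holds class I molecules at the peptide transporter, averaged 198 ± 32.5 RPM with Cebpb siRNA and isoproterenol against 102 ± 12.9 with control siRNA and isoproterenol, and 189 ± 26.1 with Cebpb siRNA against 98.1 ± 17.7 with control siRNA (SD, n = 4 each). It rose by 1.03 ± 0.07 and 1.05 ± 0.07 (limma adjusted p = 1.9e-11 and 1.48e-11), and B2m, the light chain, by 0.75 ± 0.08 and 0.83 ± 0.08 (1.95e-08 and 4.52e-09). H2-D1 rose by 0.60 ± 0.06 and 0.67 ± 0.06 (limma adjusted p = 4.53e-08 and 8.81e-09), with an uncertain division of reads among similar class I genes. H2-T23 lay near the floor, at 3.05 to 7.01 RPM with Cebpb siRNA and isoproterenol against 1.24 to 4 with control siRNA and isoproterenol, and at 3.91 to 10.3 with Cebpb siRNA against 0 to 2.5 with control siRNA. The list's genes called lower were the general folding factors of the endoplasmic reticulum Calr, Canx and Pdia3, by 0.29 to 0.36. Whether the immune members and these lists share a cause was not tested.

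Of 16 tested proteasome-associated genes 1 was called higher and 11 lower with isoproterenol, where 30% of all tested genes were lower, and 1 higher and 10 lower without, where 29.8% were, with medians of −0.24 and −0.21. The deubiquitinase Uchl5 averaged 123 ± 21.1 RPM with Cebpb siRNA and isoproterenol against 209 ± 23.9 with control siRNA and isoproterenol, and 118 ± 22 with Cebpb siRNA against 212 ± 33.8 with control siRNA (SD, n = 4 each). It fell by 0.70 ± 0.07 and 0.76 ± 0.07 (limma adjusted p = 1.46e-08 and 5.1e-09), and the shuttle protein Ubqln4 fell by 0.96 ± 0.11 and 0.87 ± 0.11 (1.73e-07 and 8.04e-07). Zfand5, which associates with the regulatory particle, fell by 0.43 ± 0.06 and 0.34 ± 0.06 (limma adjusted p = 1.79e-06 and 4.16e-05). Sem1, a small lid protein outside the naming rule, rose by 0.51 ± 0.09 and 0.48 ± 0.09 (3.89e-05 and 7.08e-05). Pomp, the maturation factor of the barrel, passed in neither comparison (0.01 ± 0.11 and −0.11 ± 0.11).

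Of 9 tested regulators of proteasome genes, limma called 0 higher and 3 lower with isoproterenol (the same at an unadjusted p under 0.05), and 1 higher and 4 lower without. Nfe2l1, encoding NRF1, the known activator of constitutive proteasome genes, did not pass (−0.03 ± 0.07 and 0.03 ± 0.07, limma adjusted p = 0.714 and 0.694). Ddi2, the protease that releases NRF1, averaged 64.1 ± 5.99 RPM with Cebpb siRNA and isoproterenol against 94.8 ± 6.76 with control siRNA and isoproterenol, and fell by 0.50 ± 0.06 with isoproterenol and 0.48 ± 0.06 without (limma adjusted p = 1.82e-07 and 2.9e-07). Nfe2l2, encoding NRF2, fell by 0.16 ± 0.06 and 0.23 ± 0.06 (limma adjusted p = 0.033 and 0.00315), and its repressor Keap1 by 0.16 ± 0.06 and 0.17 ± 0.06 (0.0263 and 0.0162). In experiment 2 alone Nfe2l2 was not called, at −0.025 with isoproterenol (limma adjusted p = 0.852) and −0.146 without (0.218). Its call with isoproterenol was also lost without the experiment as a term (0.0606). The same call was lost without any 1 of 6 libraries, replicates 1 and 2 of experiment 1 and replicate 1 of experiment 2 in both groups compared (adjusted p = 0.0527 to 0.113). Keap1 was called in neither experiment alone (0.0707 to 0.238), nor without the experiment as a term (0.279 with isoproterenol, 0.237 without). Its call with isoproterenol was also lost without replicate 2 of experiment 1 of either group or control replicate 1 of experiment 2 (0.0531 to 0.0907). Its call without isoproterenol was lost without replicate 2 of experiment 2 of either group (0.0625 and 0.0783). The ubiquitin ligase Syvn1 was called higher without isoproterenol (0.41 ± 0.15, limma adjusted p = 0.0278) and not with it (0.12 ± 0.15, 0.504), and 1 Cebpb siRNA library stood at 59.9 RPM, with 31 to 34.8 in the others. Without that library the value was 0.22 (adjusted p = 0.127), and the call was also lost without either control siRNA library of experiment 1 (0.0585 and 0.0598). Values as deposited (limma adjusted p = 0.0663), a fit without the experiment as a term (0.0874) and experiment 2 alone (0.141) also lost it. So did limma without trend and robust estimation (0.0513).

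Ubb, a polyubiquitin gene, rose by 0.29 ± 0.08 with isoproterenol and 0.27 ± 0.08 without (limma adjusted p = 0.00479 and 0.00693). Both calls were lost without the experiment as a term (adjusted p = 0.0775 and 0.0934). The call with isoproterenol was also lost in experiment 2 alone (0.21, 0.211), and that without it in experiment 1 alone (0.11, 0.281) and with values as deposited (0.18, 0.0627).

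A word of 7 bases in 3′ untranslated regions, AACTTGT, was known from earlier work on these fold changes to go with lower levels after Cebpb siRNA, so its link with these data is not independent evidence. Without isoproterenol 49.3% of the 1510 tested genes with the word were called lower, against 28% of the 8603 without it. The word was found in 5 of 48 members (10.4%, against 14.9% of tested genes), namely Psmc2, Psmd5, Psmd8, Psme4 and Psmf1. The sites of Psmc2 and Psmd8 are shown because these members with the word went opposite ways, with log2 fold changes of −0.43 and 0.21 without isoproterenol; the word is in capitals, and the sites lie on the plus strand at chr5:21803734-21803762 and on the minus strand at chr7:29175100-29175128 of GRCm38.
Psmc2: tgtgcttttgtAACTTGTtgccaccgcac
Psmd8: tagaaagcagcAACTTGTtggtaatggtt
Of the 5 members with the word, 1 was called lower and 2 higher without isoproterenol, and 1 lower and 1 higher with isoproterenol. Of the 43 members without the word, 15 (34.9%) were called lower and 8 (18.6%) higher without isoproterenol. With isoproterenol 15 (34.9%) were lower and 10 (23.3%) higher. All tested genes without the word had 28% lower and 34.2% higher without isoproterenol, and 27.9% and 34.8% with isoproterenol. The 5 immune members, Psma2, Psmg2, Psmd10, Psme3 and Psmc3ip are among those without the word. The median length of that region was 2439.5 bases in all tested genes with the word and 1033 bases in those without it. In members it was 1193 bases with the word and 241 bases without it. The part of this length in the shares called lower was not tested.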

How the data were processed

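Cell RNA went into 3′ end libraries (Lexogen QuantSeq), per the labels. Reads were aligned by STAR 2.5.3a on build GRCm38, as the submitters' processing notes have it; neither a counting tool nor its strand setting is stated in any source used here. The log2 values the authors deposited are log2 RPM, in which an entry of 0 stands for 1 RPM or less. That unit follows from the values: multiplied back, 100% of listed entries were whole reads within 0.1 read. The floor equals 9 to 25 reads, so changes of genes near it are understated. Entries that name no gene, such as unmapped (5.07 to 7.61% of reads) and multimapping reads (19.44 to 22.3%), were not tested.

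A count test was planned, but the deposited values are log2, so limma 3.58.1 (R 4.3.3) with trend and robust estimation was used. Scaling factors came from trimmed means of log ratios (30% by ratio, 5% by level). The 11044 genes above a common floor in at least 4 libraries entered a single fit of all 16 libraries, with group and experiment as terms. P-values were adjusted by Benjamini-Hochberg over these genes at 0.05, and the fit was tested on simulated data. RPM levels are unscaled. Alternatives were other scalings, filters, pseudocounts and fits, single experiments, and each library left out. Promoter windows come from RefSeq (GRCm38.p6) and 3′ untranslated regions from GENCODE vM21.

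The members and lists were chosen with earlier results of these data known. By rule, values in every library were given for the immune members, their counterparts, the 5 largest rises and 5 largest falls among the other members after Cebpb siRNA without isoproterenol, and members called with isoproterenol, and up to 4 genes of each other list by smallest adjusted p. Genes named beyond these were named after their values were seen. A few genes that this rule names, and a promoter motif that was searched, are not reported here.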

Additional observations from a re-analysis of the deposited data

Results flagged for a closer look

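In a group of 4 libraries, 1 library was called apart from the rest where its gap to the nearest other as a share of the group's range exceeded Dixon's 95% critical value. Of 156 groups checked, over 39 named genes, 11 had such a library; chance gives about 1 in 20 groups. In Cebpb siRNA cells without isoproterenol, replicate 2 of experiment 2 stood above the others for Psmb9 (55.8 RPM, others 43.8 to 44.1), H2-D1 (923 RPM, others 805 to 820) and Syvn1 (59.9 RPM, others 31 to 34.8). That library was the shallowest of the 16, with 9.42 M reads, and the next had 13.71 M. In Cebpb siRNA cells with isoproterenol, replicate 2 of experiment 2 stood below the others for Psmg2 (20.1 RPM, others 24.8 to 25.8) and Jak1 (49 RPM, others 53.7 to 54.4).

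In control siRNA cells with isoproterenol, Psmb6 was low in replicate 1 of experiment 1 (348 RPM, others 407 to 414), Psmd5 low in replicate 2 of experiment 2 (28.1 RPM, others 30.3 to 30.6) and Ubqln4 high in replicate 2 of experiment 1 (17.1 RPM, others 14.3 to 14.7). In control siRNA cells without isoproterenol, replicate 1 of experiment 1 stood apart for 3 genes: Psmd8 was high (451 RPM, others 345 to 363), and Psmg4 (13.7 RPM, others 17.5 to 18.2) and Psme2b (2.52 RPM, others 3.21 to 3.31) were low.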

How the results depend on the processing

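No named value past the threshold changed direction. Over 2568 tested values of named genes under alternatives other than leaving out a library, 2496 kept their direction and side of the threshold, 65 lost a call, 7 gained one and 82 uncalled values changed sign. With values as deposited, members called lower by isoproterenol were 0 in both siRNA settings (1 each in the reported fit) and 2 were called higher in Cebpb siRNA cells (0 reported); members called higher by Cebpb siRNA with isoproterenol were 7 (11 reported). The median of the other members was then 0.046 and 0.067 for isoproterenol in Cebpb and control siRNA cells, and −0.129 and −0.174 for Cebpb siRNA with and without isoproterenol, and that of the immune members without isoproterenol was 0.384; the median of all genes shifted by −0.066 with and −0.089 without isoproterenol under the same change. Without the experiment as a term, and without trend and robust estimation, the isoproterenol counts of lower members were 0 in both settings. In experiment 1 alone, isoproterenol in Cebpb siRNA cells gave 1 higher and 0 lower, the median of the other members was −0.146 for Cebpb siRNA with isoproterenol and −0.039 for the difference of isoproterenol effects, and the Psmb9 to Psmb6 ratio moved by 0.207 with isoproterenol in Cebpb siRNA cells (0.034 reported). In experiment 2 alone, the lower counts for isoproterenol were 0 in both settings, Cebpb siRNA with isoproterenol gave 6 higher, the median of the other members was 0.029 for isoproterenol in Cebpb siRNA cells and −0.11 for Cebpb siRNA without it, and that ratio moved by −0.139. Each experiment alone has fewer libraries; the cause of the other changes was not tested.

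Leaving out 1 library at a time gave 7 to 13 members higher and 14 to 17 lower for Cebpb siRNA without isoproterenol, and 10 to 14 higher and 13 to 16 lower with it. For isoproterenol it gave 0 to 1 lower in control siRNA cells, and 0 to 1 higher and 1 to 2 lower in Cebpb siRNA cells. The control siRNA count was 0 without the 4 libraries named with Psmd8; 1 was higher in Cebpb siRNA cells without either Cebpb siRNA library of experiment 2, and 2 lower, with Psmc3ip at −0.482 (adjusted p = 0.0492), without Cebpb siRNA with isoproterenol experiment 2 replicate 1. In experiment 2 against 1, 0 to 2 were lower, with 2 only without Cebpb siRNA replicate 2 of experiment 2. The median of the other members ranged from −0.105 to −0.07 for Cebpb siRNA without isoproterenol, −0.086 to −0.023 with it, and −0.009 to 0.023 for isoproterenol in Cebpb siRNA cells. Replicate numbers do not pair the libraries: over 12 pairs of groups, deviations correlated at −0.192 to 0.232, above 0.1 in 3. With a replicate block of experiment and number together in place of the experiment, the isoproterenol counts were 0 higher and 1 lower in each setting, the siRNA counts were 11 higher and 15 lower with and 9 higher and 17 lower without isoproterenol, and the call of Psmd5 was lost (adjusted p = 0.0559). Depth limits Psme2b, Psmg1 and Psmc3ip most, being a few RPM above the floor.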
